A study of Mus musculus with 8 samples.

Results

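*B3galt5* and 6 related genes of the mouse beta-1,3-galactosyltransferase and beta-1,3-N-acetylgalactosaminyltransferase family were followed in whole retina RNA. The genes were taken by name from the deposited gene table, and all 7 names (*B3galt1*, *B3galt2*, *B3galt4*, *B3galt5*, *B3galt6*, *B3galnt1* and *B3galnt2*) were found among its 17500 rows. All 7 passed the filter on low counts, which kept 16797 genes. The family was assembled around *B3galt5* because its false discovery rate (FDR) between the groups was under 0.05 in these same mice. Its own values are therefore a description here, and no test is claimed for it. The other 6 genes were taken for their family and not for their values.

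Retinas of 4 mice labelled Rbfox2 KD (numbered M893, M901, M902 and M909) were compared with those of 4 controls (numbered M833, M894, M896 and M898), all 6 months old and on a C57BL/6J background, with 1 poly(A)-selected library per mouse. Within each group, values of single mice are given in this order of numbers throughout. By the study's methods, the Rbfox2 KD mice were Rbfox2 fl/fl with a transgene for a Cre recombinase activated by tamoxifen, and the controls were age-matched Rbfox2 fl/+ heterozygotes. Tamoxifen treatment stands in the labels of every mouse, controls included, while the methods describe it for the Rbfox2 fl/fl animals with Cre. Tamoxifen, Cre, the number of floxed alleles and loss of *Rbfox2* therefore cannot be told apart in full between these groups. *Rbfox2*, the RNA-binding splicing regulator that was targeted, lay between 53.59 and 59.43 CPM (counts scaled to a common library size of 1e6 after TMM normalization) in the Rbfox2 KD libraries and between 143.8 and 156.8 CPM in the controls, so each library matched its label and 37.7% of the control level remained. The table totals ran from 160630226 to 211283591 counts. The libraries M901 and M902 stood apart from the other 6 on the first principal component (50% of the variance), and M909 stood apart on the second (18.7%). M901 and M902 also held 277506 and 275967 counts of *Xist*, against 312 to 426 elsewhere. Sex is not among the labels used here. Both libraries are Rbfox2 KD and no control was high in *Xist*, so what sets them apart is unevenly spread over the groups. It cannot be told apart in full from the group label. The 7 rod photoreceptor markers together made between 58700 and 66300 CPM in every library, as befits the labelled tissue.

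Enzymes of this family sit in the Golgi apparatus and the endoplasmic reticulum and move 1 sugar, galactose or N-acetylgalactosamine, from a nucleotide sugar onto the end of a growing glycan through a beta-1,3 bond. The acceptor differs from enzyme to enzyme. *B3galt1*, *B3galt2* and *B3galt5* encode enzymes that place galactose on N-acetylglucosamine and so build type 1 chains, the backbone of Lewis a and Lewis b antigens. *B3galt4* encodes the synthase of the ganglioside GM1, a sialic acid glycolipid abundant in neurons. *B3galt6* encodes the enzyme that adds the second galactose of the linker by which glycosaminoglycan chains are tied to proteoglycans. *B3galnt1* encodes the synthase of globoside, and *B3galnt2* encodes an enzyme of the O-mannose glycan of dystroglycan. Dystroglycan is a laminin receptor at the retinal inner limiting membrane and is also present at the photoreceptor synapse.

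The genes share a short coding motif for 2 aspartates separated by 1 residue, the metal-binding motif known from many glycosyltransferases that use nucleotide sugars. The stretches of 42 bases around it are shown because no other in-frame stretch of this length was more like *B3galt5* in any of the genes shown except *B3galnt2*, which bears on whether reads can be told apart. They were read in frame from GENCODE M21 transcripts (GRCm38), and the capitals mark the 2 aspartate codons and the codon between them.
B3galt5: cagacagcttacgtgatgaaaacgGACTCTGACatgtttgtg
B3galt2: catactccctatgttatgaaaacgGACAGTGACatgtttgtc
B3galt1: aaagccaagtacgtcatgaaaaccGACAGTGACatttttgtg
B3galnt1: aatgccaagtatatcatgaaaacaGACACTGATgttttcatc
B3galt4: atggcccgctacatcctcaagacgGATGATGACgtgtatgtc
B3galnt2: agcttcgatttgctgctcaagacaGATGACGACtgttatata
The *B3galt5* stretch lies at chr16:96315604-96315645 on the plus strand, in the single exon that holds the whole coding part of 924 bases. Of its 42 bases, 33 were the same in *B3galt2* (chr1:143646857-143646898, plus strand) and 30 in *B3galt1* (chr2:68118447-68118488, plus strand), the other enzymes of type 1 chains. The numbers were 24 in *B3galnt1* (chr3:69575372-69575413, minus strand), 24 in *B3galt4* (chr17:33950741-33950782, minus strand) and 18 in *B3galnt2* (chr13:13994431-13994472, plus strand). In *B3galnt2*, another in-frame stretch of the coding part matched *B3galt5* at 20 bases, so its place in this comparison rests on the aspartate codons. The longest run of identical bases shared by any 2 of the 7 genes, over all annotated transcripts and all 21 pairs, was 20 bases (*B3galt2* and *B3galt6*), and *B3galt5* shared at most 14 bases with any of the others. The study sequenced 150 bases from each end of a fragment, much longer than any shared run.

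*B3galt5* is annotated on chromosome 16 of GRCm38 from 96235801 to 96319859, with 4 transcripts of which 2 are coding, and no other annotated gene overlaps it. Its counts were 3541, 2990, 3342 and 2772 in the controls and 2049, 2412, 1727 and 2351 in the Rbfox2 KD mice. Scaled to the normalized library size, these were 17.01, 16.91, 17.46 and 15.65 CPM in the controls and 11.65, 12.51, 10.89 and 12.25 CPM in the Rbfox2 KD mice. Every Rbfox2 KD retina was below every control, and a gap of 3.14 CPM lay between the highest of the former (M901) and the lowest of the latter (M898). The group means were 11.82 ± 0.723 CPM (SD, n = 4) and 16.76 ± 0.776 CPM (SD, n = 4), which left 70.6% of the control level. On the log2 scale the difference was -0.50 (standard error 0.059, 95% interval -0.635 to -0.371). Relative to the control mean, the 4 mice stood at -0.53 (M893), -0.42 (M901), -0.62 (M902) and -0.45 (M909) on that scale. The spread between mice, 4.63% of the mean in controls and 6.12% in Rbfox2 KD retinas, was larger than the counting error of between 1.68% and 2.41% per library.

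**Figure D1:**
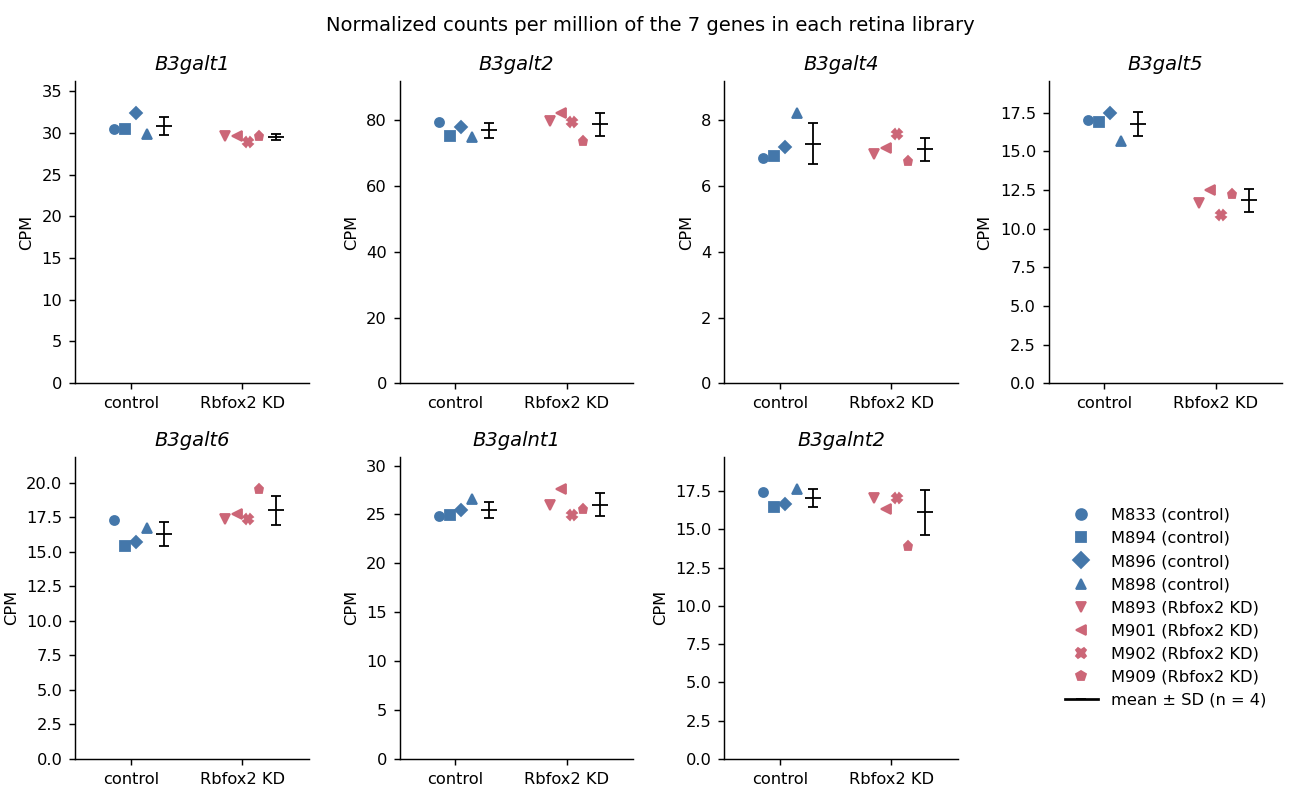
Normalized CPM (vertical axes, from 0) of each of the 7 genes in the 4 control (blue) and 4 Rbfox2 KD (red) libraries, with the mean ± SD of each group in black. For B3galt5 the red points, 10.89 to 12.51 CPM, all lie below the blue ones, 15.65 to 17.46 CPM, while the groups lie close together or overlap for the other genes.

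The value that chose *B3galt5* was its adjusted p of 0.0195 (edgeR's quasi-likelihood test, Benjamini-Hochberg adjusted over 16797 genes), and it had the sixth-lowest p. In that fit 11 genes, 0.0655% of those tested, had an FDR under 0.05, of which 5, 0.0298%, were lower and 6, 0.0357%, were higher in Rbfox2 KD retinas. Among the 7 family members, 1 was called lower and 0 were called higher, and nothing is read from this count because *B3galt5* was chosen on it. The member with the next lowest p was *B3galt6*, with an adjusted p of 0.340 from the same edgeR test. The log2 difference of *B3galt5* stayed between -0.53 and -0.47 under all 16 alternative settings. The FDR rose above 0.05 without M896 (0.0877), without M893 (0.103), without M909 (0.0503), without both M901 and M902 (0.204) and with 1 surrogate variable in the model (0.123), so the call depended on single mice while the size of the difference moved little.

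**Figure D2:**
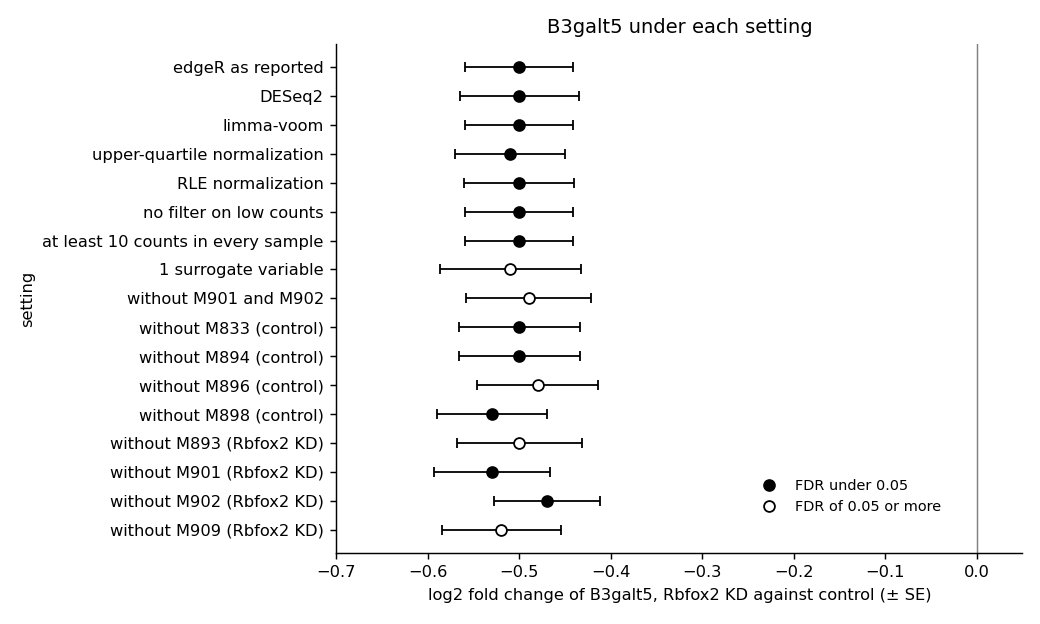
Log2 fold change of B3galt5 (horizontal axis, with its standard error) as reported and under the 16 alternative settings (vertical axis). Filled circles had an FDR under 0.05 and open circles did not, and all estimates lie between -0.53 and -0.47.

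The other enzymes of type 1 chains stood close to their control levels. *B3galt1* (chromosome 2, 67565871 to 68122689) had 30.51, 30.46, 32.32 and 29.82 CPM in the controls and 29.63, 29.60, 28.94 and 29.64 CPM in the Rbfox2 KD mice. All Rbfox2 KD values were below all controls, but by 0.182 CPM only, and the log2 difference was -0.063 (95% interval -0.149 to 0.022, edgeR adjusted p = 0.510). *B3galt2* (chromosome 1, 143640664 to 143654614) had 79.53, 75.32, 78.07 and 75.02 CPM in the controls and 79.69, 82.14, 79.53 and 73.72 CPM in the Rbfox2 KD mice. These groups overlapped, with M909 below and M893 and M901 above every control. The log2 difference of *B3galt2* was 0.033 (95% interval -0.057 to 0.123, edgeR adjusted p = 0.763). An exon stretch of 679 bases of *B3galt2* is overlapped by *Cdc73* on the opposite strand. *Cdc73*, a subunit of a transcription elongation complex, had a log2 difference of 0.057 (edgeR adjusted p = 0.735), and the strand setting of the counting is not given in the sources used here.

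*B3galt6*, the linker enzyme (chromosome 4, 155989466 to 155992649), had the second lowest p of the family. It had 17.32, 15.42, 15.71 and 16.69 CPM in the controls and 17.39, 17.72, 17.36 and 19.54 CPM in the Rbfox2 KD mice. The Rbfox2 KD values were all higher, but the lowest of them (M902) was only 0.0487 CPM above the highest control (M833), and M909 stood above the rest. The log2 difference was 0.14 (standard error 0.058, 95% interval 0.015 to 0.274), with an unadjusted p of 0.032 and an adjusted p of 0.340 from edgeR's quasi-likelihood test, so it did not pass the threshold. Across the table, 13.3% of genes had an unadjusted p under 0.05, 6.87% lower and 6.42% higher in Rbfox2 KD retinas, and 1 of the 6 members other than *B3galt5* did, *B3galt6*. In 7.03% of all genes the groups did not overlap (3.39% lower, 3.64% higher), and this held for 2 of these 6 members, *B3galt1* (lower) and *B3galt6* (higher). With upper-quartile normalization *B3galt6* overlapped, and without M909 *B3galt2* did not overlap either. By the sign alone, 4 of the 7 members were lower and 3 higher, where 49.3% of all genes were lower and 50.7% higher. With so few genes, neither count is read as a result about the family.

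*B3galt4*, the GM1 synthase gene (chromosome 17, 33949909 to 33951488), was the least counted member, with 1206 to 1455 counts per library. It had 6.861, 6.933, 7.183 and 8.215 CPM in the controls and 6.973, 7.159, 7.601 and 6.768 CPM in the Rbfox2 KD mice. Control M898 was the highest of the 8 and the groups overlapped. The log2 difference was -0.035 (95% interval -0.202 to 0.133, edgeR adjusted p = 0.881), and without M898 it was 0.027.

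The genes for N-acetylgalactosaminyltransferases did not pass the threshold either. *B3galnt1*, the globoside synthase gene (chromosome 3, 69574158 to 69598960), had 24.84, 24.98, 25.46 and 26.54 CPM in the controls and 25.93, 27.59, 24.93 and 25.59 CPM in the Rbfox2 KD mice. The groups overlapped, with a log2 difference of 0.031 (95% interval -0.069 to 0.132, edgeR adjusted p = 0.807). *B3galnt2*, the dystroglycan enzyme gene (chromosome 13, 13954469 to 13999103), had 17.43, 16.43, 16.63 and 17.63 CPM in the controls and 17.08, 16.35, 17.07 and 13.91 CPM in the Rbfox2 KD mice. A single library, M909, carried the lower mean of the Rbfox2 KD group, and the log2 difference of -0.081 (95% interval -0.235 to 0.073, edgeR adjusted p = 0.645) was -0.016 without it. Exons of *B3galnt2* are overlapped on the opposite strand by *Tbce*, which encodes a tubulin folding cofactor, over 1259 bases and by a transcribed pseudogene over 258 bases. *Tbce* had a log2 difference of -0.049 (edgeR adjusted p = 0.799).

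**Figure D3:**
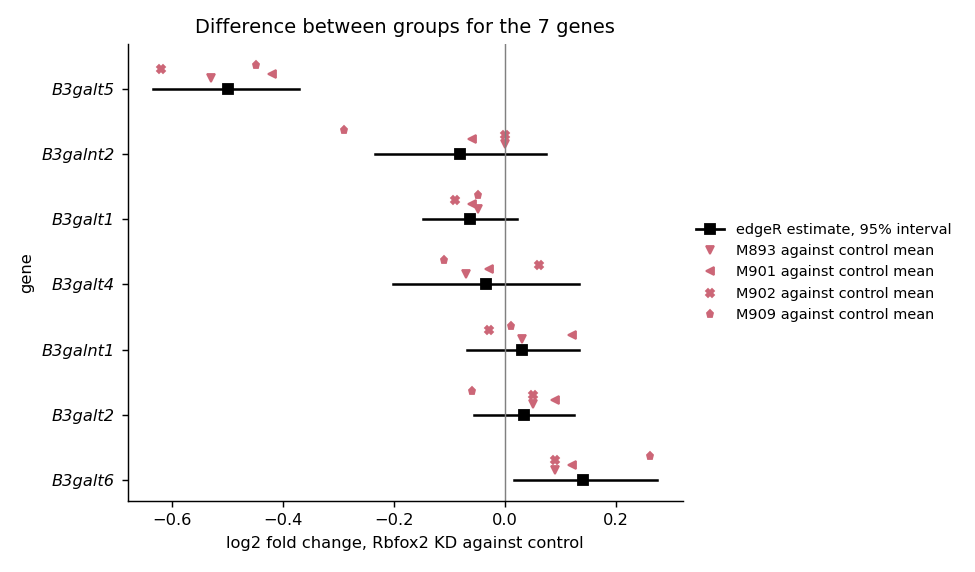
Log2 fold change of the 7 genes between Rbfox2 KD and control retinas (horizontal axis), with the edgeR estimate and its 95% interval in black and each Rbfox2 KD mouse against the control mean in red. M909 stands alone for B3galt6 and B3galnt2, and B3galt5, which was chosen on this contrast, is shown as a description (-0.635 to -0.371).

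Per length, *B3galt5* was the lowest of the 7 genes in each of the 8 libraries. The deposited FPKM, in which fragments are scaled to gene length and to the table total, averaged 16.9 ± 0.296 (SD, n = 4) for *B3galt2* and 11.3 ± 0.461 for *B3galnt1* in controls. *B3galt1* followed at 5.93 ± 0.222 FPKM, *B3galt6* at 5.10 ± 0.231, *B3galt4* at 4.66 ± 0.444 and *B3galnt2* at 4.65 ± 0.156, again in the 4 controls. *B3galt5* closed the order of control FPKM levels at 3.19 ± 0.137 (SD, n = 4), and at 2.23 ± 0.136 (SD, n = 4) in Rbfox2 KD retinas. In the order of FPKM levels, *B3galt2* and *B3galnt1* stood apart from each other and from the rest in all 8 libraries, and so did *B3galt5*. Among the 4 genes between them, neighbouring FPKM levels overlapped over the 8 libraries, and *B3galt4* was above *B3galnt2* in 5 of 8. The order depends on the length used, since the deposited FPKM rest on 4578 bases for *B3galt2* while its annotated transcript has 9288. Divided by the longest annotated transcript, the control mean CPM per kilobase was 12.6 for *B3galnt1* and 8.29 for *B3galt2*, which exchanges the highest places, and *B3galt5* remained the lowest at 3.17.

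**Figure D4:**
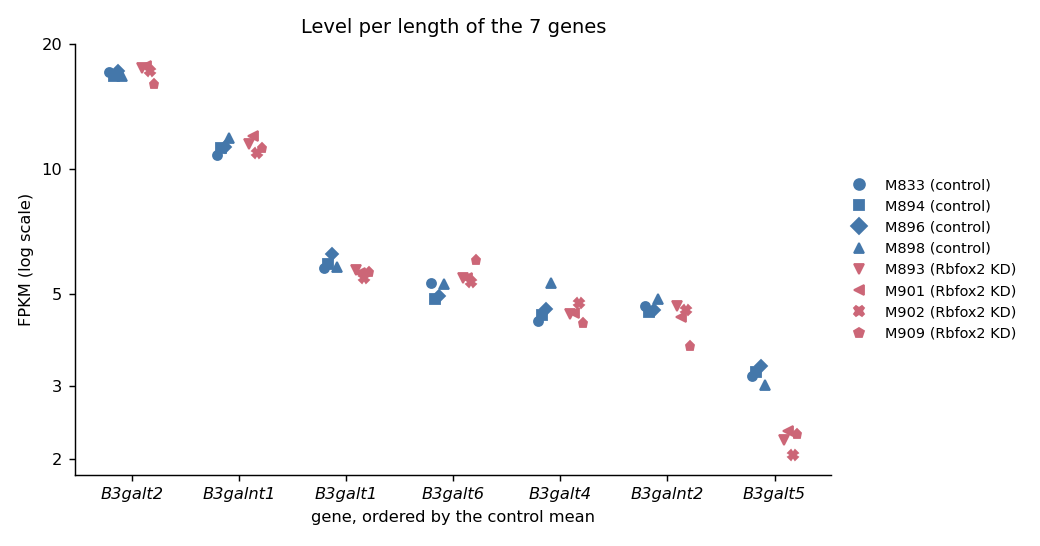
Deposited FPKM (vertical axis, log scale) of the 7 genes in each control (blue) and Rbfox2 KD (red) library, ordered by the control mean. B3galt2 is highest, at up to 17.7 FPKM over the 8 libraries, and B3galt5 lowest, at 2.04 to 3.34 FPKM.

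Of the FPKM summed over the 3 genes of type 1 chain enzymes, *B3galt5* made 12.2, 12.6, 12.5 and 11.8% in the controls and 8.72, 9.12, 8.25 and 9.62% in the Rbfox2 KD mice. The sum itself was 26.0 ± 0.564 FPKM (SD, n = 4) in controls and 24.9 ± 0.795 FPKM (SD, n = 4) in Rbfox2 KD retinas. *B3galt2* made between 64.2 and 69.6% of this sum. The shares depend on the length used: with CPM per kilobase of the longest transcript, a choice made after the data were seen, *B3galt2* made between 46.2 and 52.1%, and *B3galt5* made 18.0 ± 0.416% in controls and 13.5 ± 0.768% in Rbfox2 KD retinas (SD, n = 4 each). Over all 7 genes, the *B3galt5* share of the summed FPKM was 6.17 ± 0.323% in controls and 4.39 ± 0.269% in Rbfox2 KD retinas (SD, n = 4 each). Because *B3galt5* was chosen on this contrast, its lower share restates the value that chose it and is not a further result.

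The genes nearest to *B3galt5* on chromosome 16, among rows with an Entrez gene ID, were examined because neighbours can share reads or a regulated segment. Rows without such an ID could not be placed. Before it lie *Wrb* (now *Get1*), *Lca5l* and *Sh3bgr*, the last of which ends 6867 bases from the *B3galt5* start. After it come *Pcp4*, which encodes a small calmodulin-binding protein of neurons, *Dscam*, an adhesion receptor gene of retinal neurons, and *Bace2*. *Pcp4* starts 147746 bases beyond *B3galt5* and had 113.1 ± 5.13 CPM in controls and 115.6 ± 7.40 CPM in Rbfox2 KD retinas (SD, n = 4 each). The log2 differences were 0.085 for *Wrb*, -0.047 for *Lca5l*, 0.068 for *Sh3bgr*, 0.032 for *Pcp4*, 0.025 for *Dscam* and -0.77 for *Bace2*. The groups overlapped for each of these 6 genes, and the adjusted p lay between 0.583 (*Bace2*) and 0.942 (*Lca5l*) in edgeR's quasi-likelihood test. *Bace2* was uneven between mice, with a standard error of 0.56 on the log2 scale.

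The pattern most like that of *B3galt5* was sought among 13755 genes with a mean of at least 1 CPM, by the root-mean-square difference of log2 CPM over the 8 mice after each gene was centred on its own mean. *Calb1*, which encodes the calcium buffer calbindin of horizontal and amacrine cells, was closest at 0.085, followed by *Lamc3* (0.093), a laminin chain gene, *Ly6c1* (0.104), *Frmpd4* (0.105) and *Tprn* (0.110), which encodes taperin. All 5 were lower in all Rbfox2 KD mice than in all controls, as the measure favours, with log2 differences from -0.55 (*Ly6c1*) to -0.40 (*Calb1*). *B3galt1* was the nearest family member and took place 1369 in this order, with a difference of 0.227, against 0.261 for a gene that did not vary at all. When each gene was centred within its group, which removes the difference between groups, the nearest were *Stox2* (0.022), *Myo5a* (0.024), *Dock10* (0.027), *Dcc* (0.029) and *Hivep1* (0.029), against 0.069 for a gene without variation. The log2 differences of these 5 between the groups lay between -0.075 and -0.011, and none had an FDR under 0.05.

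Whole retina pools all its cell types, and fewer cells of a type and less RNA per cell cannot be told apart in these counts. Of 86 tested marker genes in 13 cell type lists, *Calb1* alone had an FDR under 0.05, against 11 of all 16797 genes (0.0655%). The 6 horizontal cell markers summed to between 141 and 144 CPM in Rbfox2 KD retinas and between 161 and 167 CPM in controls, with 5 of 6 lower in the mean. Without *Calb1*, a choice made after its value was seen, the other 5 summed to 83.9 to 87.0 CPM and 85.5 to 89.9 CPM, and the groups overlapped. The 7 Muller glia markers summed to between 5000 and 5410 CPM in Rbfox2 KD retinas and between 5470 and 5970 CPM in controls, and the 7 cone markers to between 1010 and 1140 CPM and between 943 and 947 CPM. In the mean, 4 of 7 Muller glia markers were lower and 6 of 7 cone markers higher. The median log2 differences of these lists were -0.04 and 0.094. These 3 of the 13 sums separated the groups as *B3galt5* did, cones in the opposite direction. Among single genes the groups did not overlap in 7.03% of the table, and no such share was computed for sums. Abundant genes weigh most in such sums. The Muller glia gene *Glul* averaged 3190 CPM over all libraries (log2 difference -0.17), and the cone gene *Opn1sw* averaged 390 CPM (0.26). The Muller glia genes *Dkk3* (1120 CPM, -0.16) and *Vim* (140 CPM, -0.14) were lower too, while 3 of 7 were higher. The cone genes *Arr3* (154 CPM, 0.2) and *Pde6c* (117 CPM, 0.23) were higher too, while 1 of 7, *Opn1mw* (98.3 CPM, -0.23), was lower. The sums are not read as shifts of whole cell types, which were not tested. The sums of the other 10 lists overlapped between the groups. Among these, 8 of 10 amacrine and 6 of 8 bipolar cell markers were lower in the mean. In the same lists, 6 of 7 rod and 7 of 9 ganglion cell markers were higher. By the sign alone, 49.3% of all genes were lower and 50.7% higher. Pigment epithelium and melanocyte markers ranged from 28.6 to 94.8 CPM in Rbfox2 KD retinas and from 40.4 to 393 CPM in controls, and surface epithelium markers from 2.81 to 70.2 CPM and from 2.02 to 3.43 CPM. Ciliary epithelium markers ranged from 253 to 323 CPM in Rbfox2 KD retinas and from 311 to 384 CPM in controls. In the mean, all 8 pigment epithelium and all 6 ciliary epithelium markers were lower and all 5 tested surface epithelium markers higher, without passing the threshold. No defining marker with a row was at 0 in all libraries. The part of these cell types in the *B3galt5* difference was not tested.

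The enzymes that work before, beside and after the family were followed in 10 lists with 99 tested genes other than the 7 members. None of the 99 had an FDR under 0.05 in edgeR's quasi-likelihood test or in limma-voom. DESeq2 called 2 of the 99, *B4galt6* and *Csgalnact1*, both lower, where it called 465 of all 16797 genes tested. At an unadjusted p under 0.05 there were 12 of 99 (12.1%), 6 higher and 6 lower, against 13.3% of all genes. At an unadjusted p under 0.01 there were 4 (4.04%), 1 higher and 3 lower, against 3.88% of all genes, 1.94% higher and 1.93% lower. The groups did not overlap in 7.07% of the 99, against 7.03% of all genes. The shares were thus close to those of the whole table, and the median log2 difference of the lists lay between -0.049 and 0.017, against 0.002 for all genes.

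**Figure D5:**
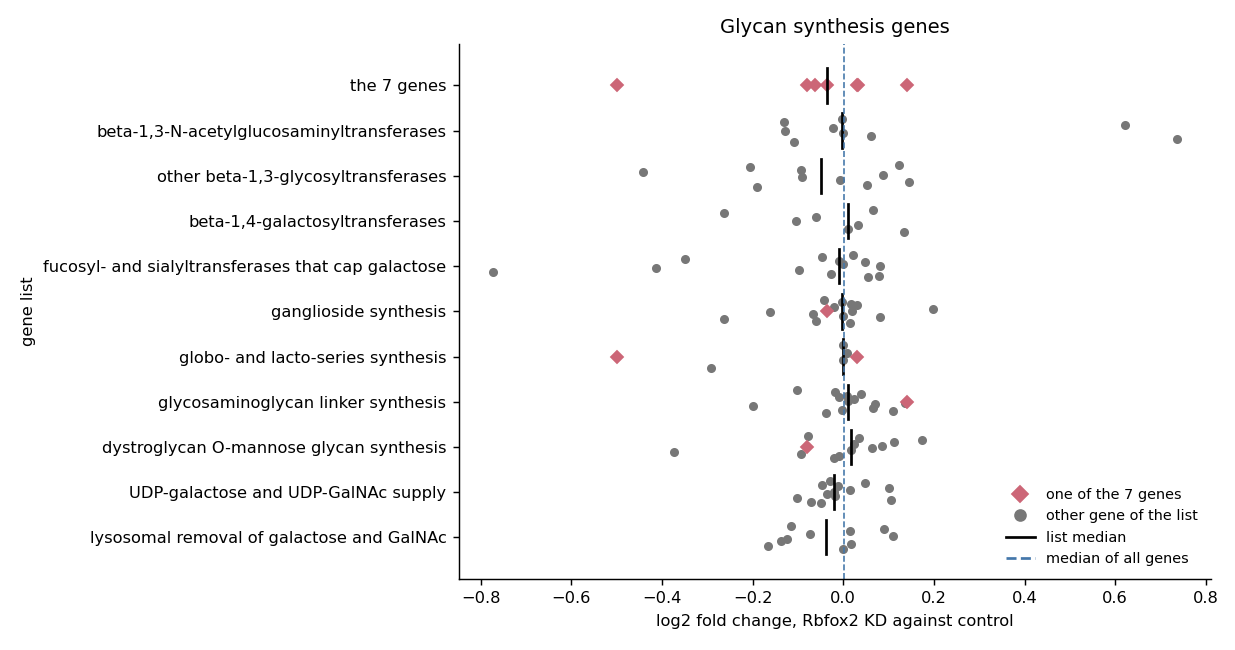
Log2 fold change between Rbfox2 KD and control retinas (horizontal axis) of each tested gene in the 7-gene family and in 10 lists of related enzymes (vertical axis). Red diamonds are family members, grey points other genes, black bars list medians, which lie between -0.049 and 0.017 for the 10 lists, and the dashed line is the median of all genes (0.002).

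Enzymes that make the acceptors of type 1 chains were measured at low to moderate levels. All 9 beta-1,3-N-acetylglucosaminyltransferase genes were tested, and 0 of 9 were called, 4 being higher and 5 lower in the mean. The lowest p values belonged to *B3gnt9*, with 5.540 ± 0.137 CPM in controls and 5.064 ± 0.248 CPM in Rbfox2 KD retinas (SD, n = 4 each, edgeR adjusted p = 0.430), and *B3gnt3*, with 0.2743 ± 0.0845 and 0.4547 ± 0.240 CPM (edgeR adjusted p = 0.452). *B3gnt5*, whose enzyme makes the lactotriaosylceramide that type 1 glycolipids extend, had a log2 difference of 0.0 (standard error 0.14). Among 10 other beta-1,3-glycosyltransferase genes, *Mfng* and *Rfng*, which encode fringe enzymes that modify Notch receptors, moved in opposite directions without passing the threshold. *Mfng* had 8.603 ± 0.474 CPM in Rbfox2 KD retinas against 9.914 ± 0.395 CPM (log2 difference -0.20, edgeR adjusted p = 0.238). *Rfng* had 60.05 ± 1.34 CPM against 55.14 ± 2.25 CPM (log2 difference 0.12, edgeR adjusted p = 0.257).

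The beta-1,4-galactosyltransferases add galactose through another bond, some of them to the same N-acetylglucosamine, and 0 of their 7 genes were called. *B4galt6*, which encodes a lactosylceramide synthase at the head of ganglioside synthesis, had 66.62 ± 3.01 CPM in Rbfox2 KD retinas and 79.89 ± 8.97 CPM in controls (SD, n = 4 each). Its log2 difference was -0.26 (standard error 0.075, edgeR adjusted p = 0.228), and 2 of 4 Rbfox2 KD mice were below every control. *B4galt1* had a log2 difference of 0.13 (edgeR adjusted p = 0.359). In the list of fucosyltransferase, sialyltransferase and related genes, 13 were tested and 0 were called. Of the listed genes, *Fut1* and *Abo* had no row, and *Fut2* and *B4galnt2* were not tested. The lowest p belonged to *Fut7*, which encodes a fucosyltransferase of selectin ligands, with 0.1118 ± 0.00973 CPM against 0.1914 ± 0.0583 CPM in controls (edgeR adjusted p = 0.296), and to *Ggta1*, with a log2 difference of -0.41 (edgeR adjusted p = 0.410).

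Of the 15 tested ganglioside genes, *B3galt4* among them, 0 were called, and the median log2 difference was -0.002. After *B4galt6*, the lowest p was that of *St6galnac5*, a sialyltransferase gene, with a log2 difference of 0.20 (edgeR adjusted p = 0.443). In the globo- and lacto-series list 6 genes were tested, and the one called was *B3galt5*, which was chosen on this contrast, so nothing is read from that call. *A4galt*, whose enzyme makes the acceptor of the globoside synthase, had 1.121 ± 0.160 CPM against 1.373 ± 0.181 CPM in controls (log2 difference -0.29, edgeR adjusted p = 0.434), and *Gbgt1* had a log2 difference of 0.009.

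Around *B3galt6*, 15 genes of glycosaminoglycan linker synthesis and its first extension were tested, and 0 were called. *Csgalnact1*, which encodes an enzyme that starts chondroitin chains on the linker, had 5.968 ± 0.104 CPM in Rbfox2 KD retinas against 6.854 ± 0.152 CPM in controls (SD, n = 4 each). All Rbfox2 KD values were lower, with a log2 difference of -0.20 (standard error 0.057, edgeR adjusted p = 0.224). *Ext1*, which encodes a heparan sulfate polymerase subunit, had 68.53 ± 3.47 CPM against 62.34 ± 2.39 CPM (log2 difference 0.14, edgeR adjusted p = 0.269), and its groups did not overlap either. In the dystroglycan list of 13 tested genes, *B3galnt2* included, 0 were called. *Pomt1*, whose enzyme adds the first mannose, had 25.32 ± 0.959 CPM against 22.44 ± 1.6 CPM (log2 difference 0.17, edgeR adjusted p = 0.268), and *Pomgnt1* had a log2 difference of 0.086 (edgeR adjusted p = 0.401).

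Genes that supply or remove the sugars stood near their control levels. Of 13 genes for galactose and N-acetylgalactosamine nucleotide sugars, 0 were called, and the largest increase, that of *Galk2* (N-acetylgalactosamine kinase), was 0.11 on the log2 scale (edgeR adjusted p = 0.355). *Slc35a3*, a nucleotide sugar transporter gene, had a log2 difference of 0.10 (edgeR adjusted p = 0.586). Of 10 lysosomal genes 0 were called, and the lowest p values were those of *Galns*, with a log2 difference of -0.17 (edgeR adjusted p = 0.383), and *Neu1*, a sialidase gene, with 0.089 (edgeR adjusted p = 0.401).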

How the data were processed

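Retinal RNA of 8 mice, 4 per group by the genotype label, was measured in 1 library each, and nothing in the labels pairs the mice. The authors aligned 150-base paired reads to mm10 with STAR and, from reads with a unique position, obtained fragment counts by gene in HTSeq. The deposited counts are not normalized. The deposited FPKM equal the count divided by the table total and a gene length. The authors' fold changes, p-values, FDR and normalized counts in the table were not used. The sources name both RefSeq and Ensembl models for the counting, and CASAVA 1.8.2 and edgeR in the submitters' processing notes.

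Counts were filtered with filterByExpr, TMM normalized and tested with the quasi-likelihood test of edgeR 4.0.16 (R 4.3.3) over 16797 genes without covariates, with Benjamini-Hochberg adjustment. Standard errors were derived from each log2 fold change and its F statistic, and intervals use the test's degrees of freedom. The alternatives were DESeq2 1.42.0, limma-voom (limma 3.58.1), upper-quartile and RLE normalization, no filter, at least 10 counts in every sample, 1 surrogate variable (sva 3.50.0), each mouse left out, and M901 and M902 left out. No pair of libraries of a group agreed within counting noise (chi-square per degree of freedom at least 31.5). A floor of 3 counts is 0.0144 to 0.0189 CPM at these depths, for counting error alone. Genes were placed by GENCODE M21 and, for neighbours, by RefSeq on GRCm38, the assembly that mm10 names.

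The members and lists were chosen with earlier results of these data known. Named are the 7 members, list genes with p under 0.01 and at least the 2 with the lowest p of each list. The 3 nearest genes on each side of *B3galt5*, among rows with an Entrez gene ID, are also named. So are the 5 most like it by each centring (log2 of CPM + 0.01), *Rbfox2* and *Xist*. *B3gnt5*, *Cdc73*, *Tbce*, *Glul*, *Dkk3*, *Vim*, *Opn1sw*, *Arr3*, *Pde6c* and *Opn1mw* were added after their values were seen. *Fut1*, *Abo*, *Fut2* and *B4galnt2* are named only as genes without a test. The motif stretch of 1 member and the name of the Cre transgene are not reported here.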

Additional observations from a re-analysis of the deposited data

Results flagged for a closer look

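In 16 groups of 4 mice (the 7 members and *Rbfox2* in either genotype), the most extreme mouse was compared with its nearest neighbour, and gaps over Dixon's critical share of the whole range were marked, where chance marks about 1 group in 20, or 0.8 of 16. Of these 16 groups, 2 were marked. *B3galt1* was lowest in M902, at 28.94 CPM, below the 29.60 to 29.64 CPM of the other Rbfox2 KD mice, a small gap that stands out because those 3 were nearly equal. *B3galt6* was highest in M909, at 19.54 CPM, above the 17.36 to 17.72 CPM of the other Rbfox2 KD mice, and M909 was also the library apart on the second principal component.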

How the results depend on the processing

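Under the 16 alternatives, *B3galt5* kept its direction throughout and its FDR under 0.05 in 11. It lost the call with 1 surrogate variable (-0.51) and without M901 and M902 (-0.49), and leaving out single mice gave -0.53 to -0.47. The members called fell to 0 in both of these fits, and lay between 0 and 1 with single mice left out. For the 6 other members no alternative gave an FDR under 0.05. The direction of *B3galt2* turned with the surrogate variable (-0.021) and without M901 and M902 (-0.008), and single mice left out gave 0.012 to 0.064. That of *B3galt4* turned without M898, within a range of -0.068 to 0.027. The count of all genes called, 11, was 465 with DESeq2, 5 once the surrogate variable was included, 1 without M901 and M902, and 5 to 35 with single mice left out. The pathway genes called, 0, were 2 with DESeq2 and 0 to 1 with single mice left out (*B4galt6*, without M894). Per kilobase of the longest transcript, control levels moved to 8.29 (*B3galt2*), 12.6 (*B3galnt1*), 6.18 (*B3galt1*) and 4.37 (*B3galnt2*) CPM. The cause of these changes was not tested, except that leaving out mice lowers the number of samples. No paired analysis was possible because nothing in the labels pairs the mice. The members had 1206 to 16554 counts per library.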

Other observations

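The length behind the deposited FPKM of *B3galt5* was 5281 bases in every library. Its longest annotated transcript starts at position 96235801 and has 5282 bases, while the RefSeq entry named in its row is paired by GENCODE with a coding transcript that starts at 96280798 and has 5147 bases. Both hold the same number of coding bases, 924, and the counts per gene pool them, so a shift between these starts could not be seen in the table. For *B3galt1* the length behind the FPKM was 5222 bases against 2855 for the paired transcript, and for *B3galt4* it was 1577 against 1580.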
